A study of Homo sapiens with 8 samples.

Results

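The mRNAs of 10 contractile and actin-associated genes were examined for binding by LARP6, namely ACTA2, TAGLN, CNN1, MYL9, TPM1, TPM2, TPM4, ACTN1, ACTN4 and S100A11. A region belonged to a gene when its midpoint lay within the gene's GRCh38 bounds on the gene's strand. The 4 immunoprecipitated libraries held 988 such regions of 176826, and the 2 lists that the authors made from both replicates of a condition held 12 of 1635. The cells were human hepatic stellate cells of wild-type genotype, grown in serum-containing medium and crosslinked with ultraviolet light. LARP6 was then immunoprecipitated with its crosslinked RNA (eCLIP) beside size-matched input. Control cells carry the labels untreated and DMSO, and treated cells received TGFβ1 at 5 ng/ml, for a time that the labels do not state. Each condition had 2 immunoprecipitated libraries, which are called control 1 and 2 and TGFβ1 1 and 2. The labels do not name separate cultures, so replicate spread may be technical only.

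Stellate cells that are activated, as by TGFβ, take on features of a smooth muscle cell. They form stress fibres in which actin filaments, wrapped by tropomyosin and crosslinked by actinins, are pulled by myosin, and they express ACTA2 and TAGLN as markers of that state. LARP6, of the La-related family of RNA-binding proteins, is best known for its contact with the 5′ stem-loop of type I collagen mRNAs.

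Each library's list gives tested clusters, which are stretches of immunoprecipitated reads compared with input. The authors' log2 fold over input and −log10 p of a cluster are used as deposited, and a cluster is called enriched where both are at least 3. The libraries held 51273 and 39880 tested clusters in control and 31137 and 54536 in TGFβ1. The lists hold no read counts, so the depth is unknown. Folds took few distinct values, between 1907 and 3683 per library, and 89.6% to 94.9% of clusters had exactly the log2 fold of at least 9 others in their library (to 6 decimals). Of 15 stellate cell and fibroblast markers, 11 or 12 had a tested cluster in each library, while DES, LRAT and RGS5 had none. No library had a cluster in the 6 hepatocyte or 5 endothelial markers. Marker genes whose strand was not known, DES among them, were read on either strand and held 0 clusters.

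Only TAGLN and S100A11 carried a site enriched in all 4 libraries. Enriched clusters and listed peaks of the 10 genes, merged where at most 20 nt apart, made 6 sites in TAGLN, S100A11, ACTN1 and TPM1, and 3 of the 6 were enriched in 1 library alone. ACTA2, CNN1, MYL9, TPM2, TPM4 and ACTN4 had no enriched cluster in any library. In control 1, 3 of 191 clusters of the 10 genes were enriched, which is 1.57% (95% Wilson interval 0.536% to 4.52%) beside 1.21% of all tested clusters of that library. In control 2 these were 6 of 177, or 3.39% (1.56% to 7.20%) beside 2.09%. In TGFβ1 1 they were 7 of 281, or 2.49% (1.21% to 5.05%) beside 2.69%, and in TGFβ1 2 they were 8 of 339, or 2.36% (1.20% to 4.59%) beside 3.64%. Each interval, which covers counting error only, held the share over all clusters. The intervals take clusters as independent, although several enriched clusters could lie in 1 site. In TGFβ1 2 the main TAGLN site and the S100A11 site held 3 enriched clusters each. TAGLN and S100A11 supplied 3, 4, 5 and 7 of these enriched clusters, so that the other 8 genes together had 0, 2, 2 and 1. The median log2 fold of the 10 genes' clusters was 0.12, 0.26, 0.20 and 0.14 in the order control 1, control 2, TGFβ1 1 and TGFβ1 2, against 0.38, 0.85, 0.94 and 0.82 over all clusters. The medians over all clusters of control 1 and control 2 were also the commonest values of those lists, shared by 14759 and 10002 clusters, and 31.3% to 72.2% of all clusters of a library had a −log10 p of 0. Of the 10 genes' clusters, 70.7% and 54.8% in control and 44.1% and 46.3% in TGFβ1 had a −log10 p of 0. Over all clusters these shares were 72.2% and 58.4% in control and 31.3% and 32.5% in TGFβ1.

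**Figure D1:**
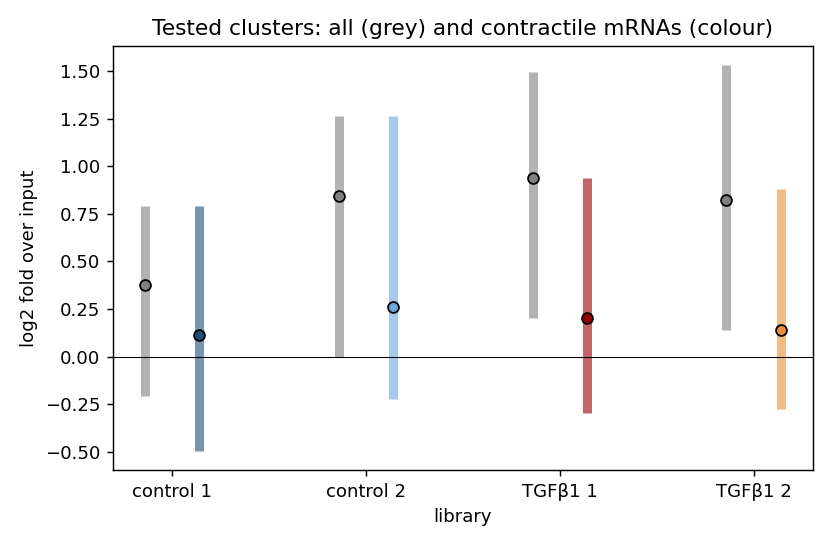
Log2 fold over input of tested clusters in each of the 4 immunoprecipitated libraries, for all clusters (grey) and for clusters of the 10 contractile mRNAs (colour). Points are medians and bars span the lower to the upper quartile; the coloured medians, 0.12 to 0.26, lie below the grey ones, 0.38 to 0.94, in each library.

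TAGLN encodes transgelin, an actin-binding protein of the calponin family that marks smooth muscle. Its main site lay on chromosome 11 (GRCh38, chr11:117205377-117205490, plus strand), with 1 peak in the control list made from both replicates and 3 in the TGFβ1 list. The highest log2 folds there were 4.08 in control 1, 4.85 in control 2, 5.49 in TGFβ1 1 and 6.67 in TGFβ1 2. Both TGFβ1 values lay above both control values, at 6.08 ± 0.83 against 4.46 ± 0.54 (SD, n = 2), a difference of 1.62 in log2 fold. That difference depends on how the site was divided. TGFβ1 2 had 3 clusters there, and its 6.67 came from one of 16 nt. Each other library had 1 cluster, of 83 to 114 nt. The longest cluster of TGFβ1 2, of 58 nt, had 5.57, near the 5.49 of TGFβ1 1 and still above both control values. The authors' −log10 p of the clusters with the highest folds was 4.79 and 8.29 in control and 51.4 and 121 in TGFβ1. The other TAGLN clusters were near input, with medians of -0.12, 0.65, 0.28 and 0.41 outside the sites.

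The TAGLN site stood away from the other clusters of the gene. Over the 4 libraries, 42 clusters lay upstream and ended at 117204681, with log2 folds from -0.91 to 2.72 and a median of 0.33. The next 695 nt held 1 cluster, seen in control 2 alone, and then the site began. The site lay 2031 nt from the 3′ end of the RefSeq gene bounds. It also lay 1040 nt inside the bounds of PCSK7, a proprotein convertase gene on the opposite strand, and no library had a cluster on that opposite strand within the bounds of TAGLN. The annotation used here holds no exons, so the part of the transcript is not given. Whether the site lies within the TAGLN mRNA or past its usual 3′ end was not tested. A further TAGLN cluster, 459 nt from the 3′ end, was enriched in TGFβ1 2 alone at 4.31. It had 1.62 in TGFβ1 1 and 1.26 in control 2, with no tested cluster in control 1.

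S100A11 encodes a calcium-binding S100 protein found with actin filaments and annexins. Its site lay on chromosome 1 (chr1:152032697-152032809, minus strand), with its centre 247 nt before the 3′ end, and held 3 control and 4 TGFβ1 list peaks that abut each other. The highest log2 folds were 4.08 in control 1, 5.24 in control 2, 5.44 in TGFβ1 1 and 6.22 in TGFβ1 2, with the 4.08 of control 1 equal to that of TAGLN in the same library. TGFβ1 was again higher in both libraries, at 5.83 ± 0.55 against 4.66 ± 0.82 (SD, n = 2). The distance between the groups was smaller than for TAGLN, since control 2 and TGFβ1 1 differed little. In each library 4 clusters of S100A11 lay outside the site, and their highest log2 folds ran from 0.38 to 0.94. Among all tested protein-coding genes of a library, ordered by highest log2 fold, TAGLN and S100A11 lay at percentiles from 98.4 to 99.3.

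**Figure D2:**
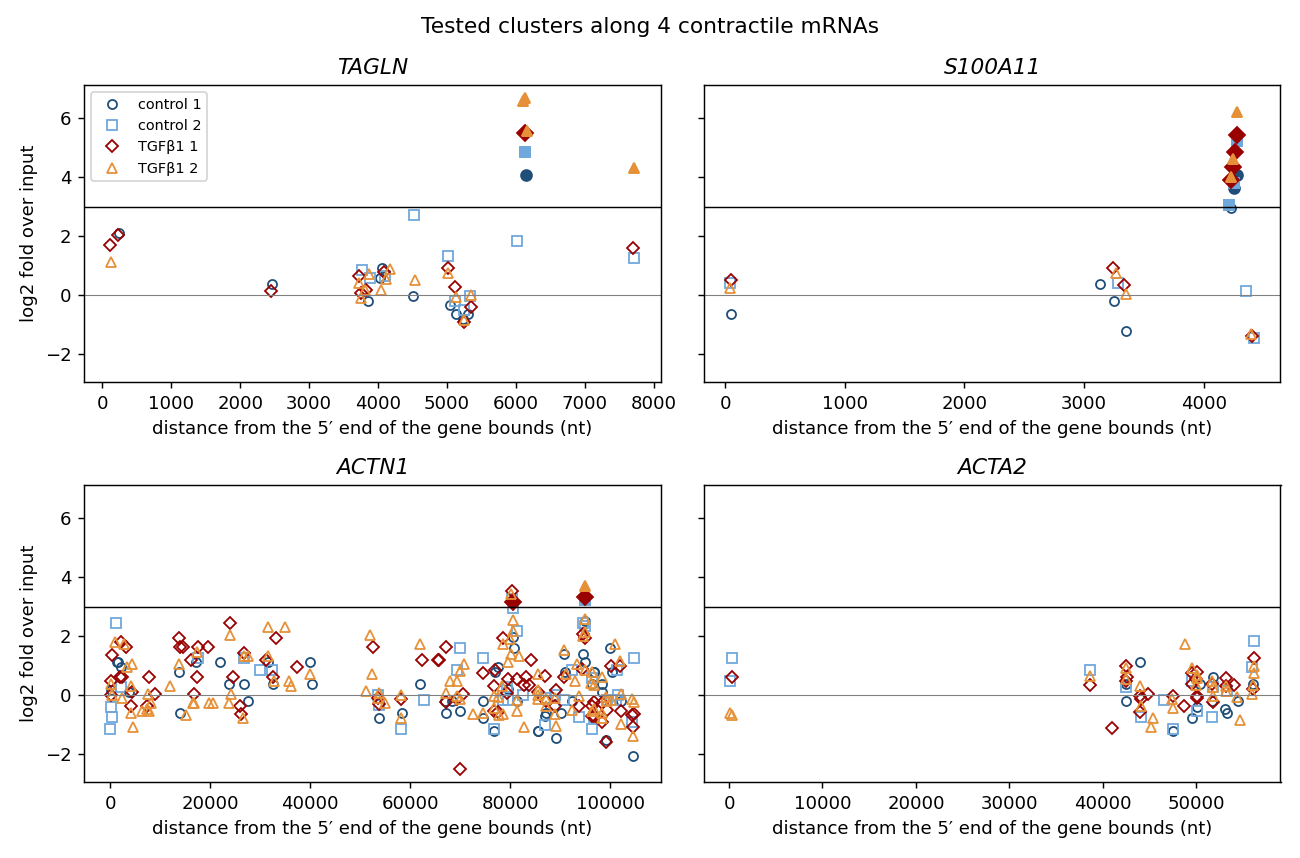
Log2 fold over input of each tested cluster against the distance of its midpoint from the 5′ end of the gene bounds in nt, for TAGLN, S100A11, ACTN1 and ACTA2 in 4 libraries. Filled symbols are enriched clusters and the upper line is the fold limit of 3; each library has filled symbols at the same place of TAGLN and of S100A11, TGFβ1 2 has 1 more TAGLN symbol further downstream, and ACTA2 has none.

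ACTA2, the smooth muscle actin that defines the activated stellate cell, had no cluster past the fold limit in either condition. It had 13 and 14 tested clusters in control and 25 and 27 in TGFβ1. Their highest log2 folds were 1.12 and 1.85 in control and 1.26 and 1.72 in TGFβ1. These values overlapped, with means of 1.48 ± 0.52 and 1.49 ± 0.33 (SD, n = 2). The p limit was passed by 1 ACTA2 cluster of TGFβ1 1 and 3 of TGFβ1 2, at log2 folds of 0.68 to 1.00. No ACTA2 cluster of control passed it. Over all clusters the p limit was passed by 2.16% and 3.86% in control and by 5.37% and 6.72% in TGFβ1. The cluster of 1.85 lay 127 nt before the 3′ end, where the other libraries had 0.38, 1.26 and 0.99. By the distance between their highest log2 folds in the 4 libraries, the genes nearest to ACTA2 among 4322 tested in all libraries were RPS10, RPS10-NUDT3 and BNIP3L, each at a Euclidean distance of 0.0525. RPS10 and RPS10-NUDT3 overlap in the genome, and all 3 genes had the same 4 values.

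CNN1, which encodes the actin-binding calponin 1 of smooth muscle, was almost without tested clusters in control. Control 1 had 0 and control 2 had 1, while TGFβ1 1 had 12 and TGFβ1 2 had 15. The clusters after TGFβ1 reached log2 folds of 1.94 and 1.72, at a −log10 p of only 0.61 and 0.41. The control cluster had -1.15 at a −log10 p of 0. None was enriched. MYL9 encodes a regulatory light chain of the myosin that drives contraction, and its clusters were as many in both conditions, at 9 and 11 against 9 and 9. Its highest log2 folds were 1.12 and 1.92 in control and 1.43 and 2.67 in TGFβ1, which overlap. The highest cluster, of TGFβ1 2, had a −log10 p of 10.2 and fell short of the fold limit.

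The tropomyosins, which lie along the actin filament and govern access of myosin, gave 1 enriched cluster in all. TPM1 had highest log2 folds of 2.25 and 3.02 in control and 2.99 and 2.66 in TGFβ1. The value of 3.02, in control 2, just passed the limit with a −log10 p of 3.47. The 2.99 of TGFβ1 1, at another place, just missed the limit in fold. TPM2 was lowest among the 10 genes in 3 of 4 libraries with values of 0.38, 1.09 and 0.70, and had 1.85 in control 2. TPM4 had 2.38 and 2.72 in control and 2.20 and 2.36 in TGFβ1. Its highest fold was lower in both TGFβ1 libraries than in both control libraries, by 0.27 on average. It was the only such gene of the 9 tested in all 4 libraries. These highest clusters lay at different places, with a −log10 p of 0.90 and 1.41 in control and 0.83 and 8.73 in TGFβ1. At the place of the 2.36, 714 nt from the 3′ end, the order was otherwise. Control 1 had no cluster there, control 2 had 1.03 and TGFβ1 1 had 1.72.

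The enriched TPM1 cluster covered an annotated transcription start on chromosome 15 (cluster chr15:63048469-63048651, plus strand), downstream of the 5′ end of the gene bounds. It was the only enriched cluster over the 50 nt that follow any of the 16 annotated starts of 8 of the genes. TAGLN and MYL9 were not among the genes with annotated starts. At this start the other libraries had 0.67 in control 1 and 0.99 in TGFβ1 2, with no tested cluster in TGFβ1 1. At a TPM4 start (chr19, plus strand) all 4 libraries had a cluster, with log2 folds of 0.96 and 2.31 in control and 0.94 and 1.21 in TGFβ1. At the S100A11 start (chr1, minus strand) they had -0.62 and 0.41 in control and 0.50 and 0.23 in TGFβ1, far below its 3′ site. The 30 bases from these 3 starts (RefSeq, GRCh38.p14) are shown because LARP6 is known for 5′ ends. Capitals mark bases inside a tested cluster in at least 3 of the 4 libraries.
TPM1: agccaggacagccGCGGCAGCCGGGTCCGC
TPM4: GTGCAGCTCTCGCCGGAGCCGAGCCCAGCC
S100A11: gagGAGAGGCTCCAGACCCGCACGCCGCGC
They begin at 63048489 for TPM1 and 16076495 for TPM4, and at 152037004, reading downwards, for S100A11. G and C made up 80.0%, 76.7% and 76.7% of the 30 bases. The other starts whose sequence was read had lower shares, of at most 73.3%. One of them was a TPM2 start, where all 4 libraries also had a cluster. The shares of the 3 starts shown are therefore not read as a trait of starts with clusters. Between 13 and 21 clusters of the 10 genes lay in the first 500 nt of the gene bounds in a library, and 0 of them were enriched. The last 500 nt held 7 to 18 clusters, of which 2 and 3 in control and 4 and 4 in TGFβ1 were enriched, all of them in TAGLN or S100A11.

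The actinins crosslink actin filaments and anchor them at adhesions. ACTN1 had a site on chromosome 14 (chr14:68884235-68884286, minus strand), 10132 nt from the 3′ end, listed in TGFβ1 alone with 1 peak. Its log2 fold was 2.49 in control 1, 3.22 in control 2, 3.32 in TGFβ1 1 and 3.68 in TGFβ1 2. The TGFβ1 values were higher, but control 2 was enriched too and lay close below TGFβ1 1. A second ACTN1 place (chr14:68898714-68898833) was enriched in TGFβ1 1 alone at 3.14, with 2.53 in TGFβ1 2 and 1.96 and 2.96 in control, so the groups overlapped. Near it, 3 clusters in 3 libraries had log2 folds of 3.26 to 3.53 without reaching the p limit. ACTN4 had highest log2 folds of 3.44 and 2.43 in control and 2.62 and 2.05 in TGFβ1. The 3.44 fell short of the p limit at a −log10 p of 2.70. At that place, 1576 nt from the 3′ end, the other libraries had 1.96, 2.38 and 1.87, the last with a −log10 p of 11.3.

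**Figure D3:**
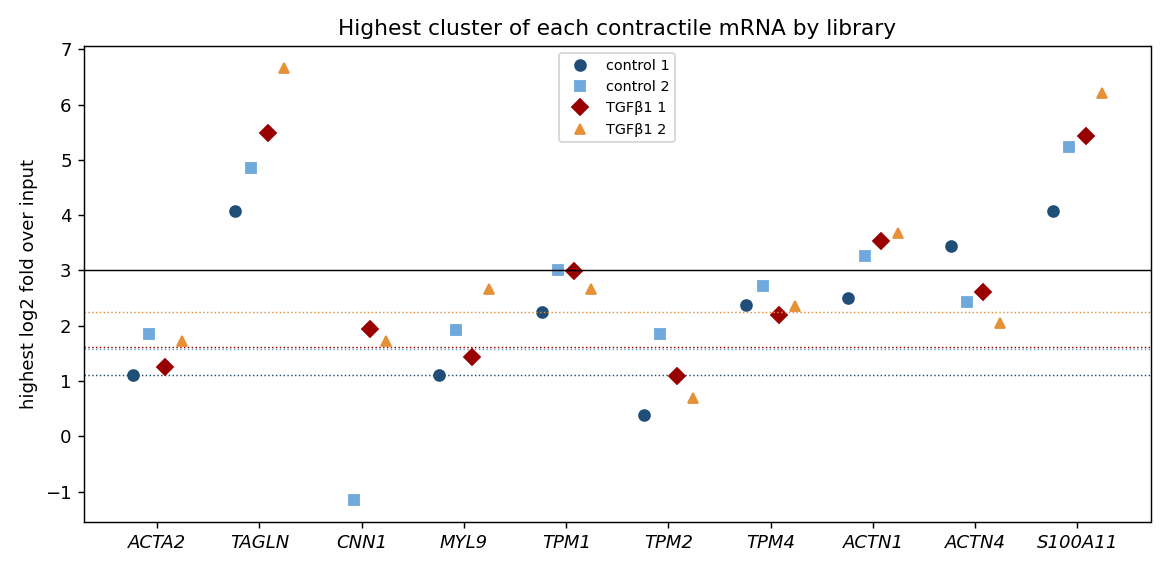
Highest log2 fold over input of any tested cluster of each gene, 1 point per library, with the fold limit of 3 (solid line) and the median over the 4322 genes tested in all libraries (dotted lines in the library's colour). TAGLN and S100A11 lie above 4 in each library, while ACTA2, CNN1, MYL9, TPM2 and TPM4 lie below 3 in each; CNN1 has no point for control 1.

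The treatment comparison asks whether LARP6 binding of contractile mRNAs differed after TGFβ1. In the lists made from both replicates, 2 of the 9 genes tested in both control libraries had a peak (TAGLN and S100A11), beside 3.89% of all protein-coding genes so tested. In TGFβ1, 3 of 10 had one (these and ACTN1), beside 7.07%. The 10 genes were chosen with earlier results of these data known, so their excess over all genes is no test. Another measure is an enriched cluster in 1 library, for which the share of all genes is not given here. By it, 4 genes had one in control 2, ACTN1 and TPM1 being added. There were 2 such genes in control 1 and 3 in each TGFβ1 library. Of all tested clusters of control 2, 2.09% were enriched. That is a share of clusters and no background for a count of genes, so no excess is read from these counts. The share of the 10 genes' clusters that were enriched was 2.48% ± 1.29 in control and 2.43% ± 0.0928 in TGFβ1 (SD, n = 2). It did not differ detectably (exact permutation test, two-sided, p = 1, where 2 against 2 libraries can give no p below 0.333). Without control 2 the difference changed sign, from -0.0548 to 0.855 percentage points, and without TGFβ1 2 it was 0.0108.

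Of the 9 genes tested in all 4 libraries, the highest log2 fold was higher in both TGFβ1 libraries than in both control libraries for TAGLN, S100A11 and ACTN1, lower for TPM4 and overlapping for 5. Among all protein-coding genes tested in all 4 libraries, 42.3% were higher in this sense and 5.46% were lower. The median highest log2 fold over these genes was 1.12 and 1.58 in control and 1.62 and 2.25 in TGFβ1, so genes at large had higher values in the TGFβ1 lists, as TAGLN and S100A11 did.

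More clusters were tested in contractile mRNAs after TGFβ1. Such clusters show where immunoprecipitated reads were found, whether or not they exceeded input. Per 10000 tested clusters of the library, the 10 genes held 37.3 and 44.4 in control and 90.2 and 62.2 in TGFβ1. The means were 40.8 ± 5.04 and 76.2 ± 19.9 (SD, n = 2; exact permutation test, two-sided, p = 0.333, the smallest the design allows). Without TGFβ1 1 the difference was 21.3 in place of 35.4. ACTA2, TAGLN, CNN1, TPM1, ACTN1 and ACTN4 were higher in both TGFβ1 libraries than in both control libraries, and MYL9, TPM2, TPM4 and S100A11 overlapped. The background for this order was 32.7% of protein-coding genes with at least 20 clusters, and 26.3% were lower. CNN1 reached 20 clusters only through TGFβ1, with 27 there and 1 in control. Its order is therefore no support against this background or those by covered nt and by number. ACTA2 had 2.54 and 3.51 against 8.03 and 4.95. ACTN1, the gene with the most clusters, had 10.5 and 10.8 against 26.0 and 19.99. CNN1 had 0 and 0.251 against 3.85 and 2.75. The TGFβ1 to control ratio of these means was 2.15 for ACTA2, 2.16 for ACTN1, 2.11 for ACTN4 and 2.03 for TPM1, where the median over 2289 genes was 1.11. These 4 lay at percentiles 86.2 to 87.8 of those genes, and MYL9 (1.01) and TPM4 (1.12) lay near the middle. Counted by covered nt, TAGLN overlapped too, and 5 genes were higher and 0 lower (background 32.7% and 25.8%). By number of clusters without scaling TPM2 was also higher, which made 7 genes higher and 0 lower (background 20.6% and 22.7%).

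Some markers of other cells also had more tested clusters in the TGFβ1 libraries, counted without scaling. Of 5 vascular smooth muscle markers, of which CNN1 is also among the 10 genes, 2 and 3 had a cluster in control and 4 and 4 in TGFβ1. MYH11 had none in control and MYOCD none in any library. Their clusters summed to 15 to 20 in control and 36 to 53 in TGFβ1. CNN1 itself supplied 0 and 1 of these in control and 12 and 15 in TGFβ1, so the sums are not separate from the result above. Clusters of the 15 stellate cell and fibroblast markers summed to 524 and 609 in control and 579 and 713 in TGFβ1. Of 4 cholangiocyte markers KRT7 and SOX9 had clusters in each library, 2 and 3 in all in control and 15 and 18 in TGFβ1, while KRT19 and EPCAM had none. Of 5 macrophage markers CD68 alone had clusters, 2 and 4 in each condition. The part of other cell types in the higher share of tested clusters of the 10 genes was not tested. In bulk samples such as these, more cells of a type and more RNA per cell cannot be told apart.

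**Figure D4:**
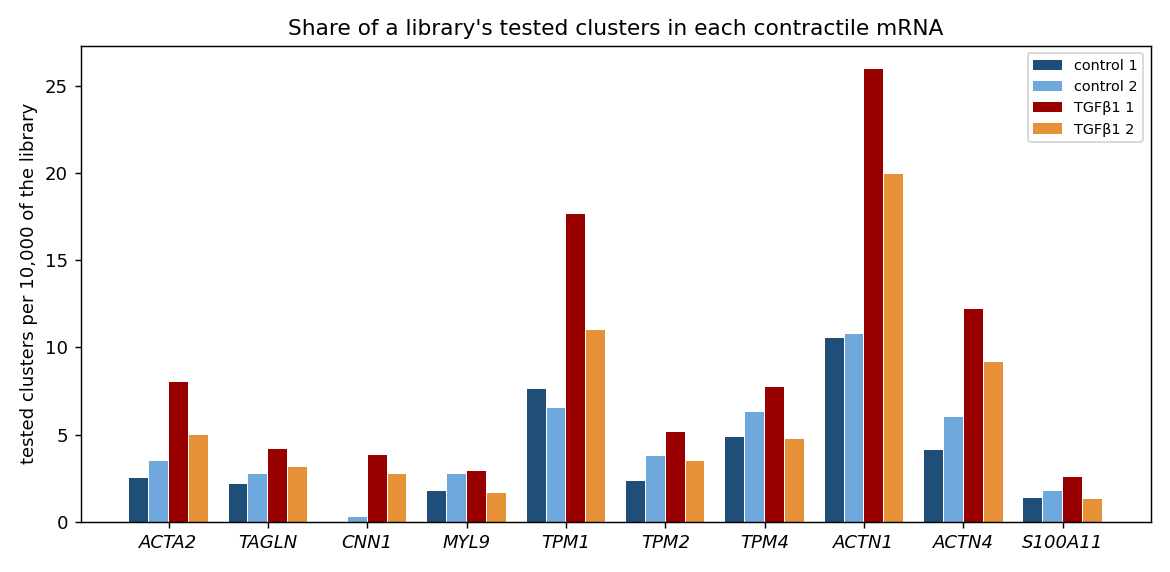
Tested clusters of each gene per 10000 tested clusters of the library, 1 bar per library. Both TGFβ1 bars exceed both control bars for ACTA2, TAGLN, CNN1, TPM1, ACTN1 and ACTN4; without scaling TPM2 joins them, and by covered nt TAGLN leaves them.

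A list of 52 other contractile and cytoskeleton-related genes was read in the same way. Its share with a listed peak after TGFβ1 was near that of all genes. In control 0 of 44 tested in both libraries had a peak in the list made from both replicates (beside 3.89% of all genes), and neither library had an enriched cluster in any of the 52. In TGFβ1, 3 of 47 had a peak (6.38%, beside the 7.07% of all genes), among them FLNC and FLNA, whose products crosslink actin. Enriched clusters lay in 5 of these 47 genes in TGFβ1 1 and in 7 in TGFβ1 2. The share of all genes with an enriched cluster in 1 library is not given here. Over all tested clusters, 1.21% and 2.09% were enriched in control and 2.69% and 3.64% in TGFβ1. These are shares of clusters and no background for the counts of genes, from which no result about the 52 genes is read. FLNC had 6 list peaks and highest log2 folds of 2.88 and 2.96 in control and 3.23 and 4.41 in TGFβ1. FLNA had 2 peaks and 2.96, 3.17, 4.24 and 7.25 in the same order. RHOA, a small GTPase that drives contraction, had 3 enriched clusters in TGFβ1 2 alone, up to 4.79, and the focal adhesion genes TLN1 (3.93) and TNS1 (3.72) had 1 each there; these 3 were named after their values were seen. CNN2, a calponin of non-muscle cells, had no list peak but was enriched in both TGFβ1 libraries, at 3.12 and 4.25, against 3.44 and 3.07 in control short of the p limit. The median highest log2 fold of these genes was 1.18 and 1.65 in control and 1.94 and 2.05 in TGFβ1. That of the 10 genes was 2.38, 2.58, 2.41 and 2.51 in the same order. The 10 genes and this list were chosen with earlier results of these data known, so the contrast between them is no test. The genes nearest to TAGLN by highest log2 fold over the 4 libraries were AVEN, PRMT5 and TSPAN5, at Euclidean distances of 0.556 to 0.600.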

How the data were processed

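Only the deposited peak lists were used, 1 for each of 4 immunoprecipitated libraries and 2 made by the authors from both replicates of a condition. The 4 input samples were not analysed here on their own. The submitters' processing notes name cutadapt, STAR, UMI-tools and GRCh38. Which peak caller was used, how input was normalised and how replicates were joined is not given in the sources used here. No list has a header. From their values, the authors' log2 column was read as log2 fold over size-matched input. The other deposited column was read as the authors' −log10 p, with a cap of 400. Both lists made from 2 replicates hold no peak under 3 in either value.

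Gene bounds came from RefSeq (GRCh38.p14). Strands came from a RefSeq promoter table for 15842 protein-coding genes and from the majority of clusters for 1193, TAGLN and MYL9 among them. Coordinates are 1-based, and regions overlapped at 1 nt or more. The members and lists were chosen with earlier results of these data known. The 10 genes were named in any case, other contractile genes where listed or enriched in at least 2 libraries, and the 3 genes nearest to ACTA2 and TAGLN. 1 gene taken by this rule is not reported here. The comparison of tested clusters was added after values were seen, and so were the singled-out places of ACTN4, TPM1, TPM4 and ACTA2. Library values were compared by exact permutation. Assignment and merging were tested on simulated data. Tables were computed in Python 3.11.15 (pandas 2.3.3, NumPy 2.4.6), tests with SciPy 1.17.1 and plots with matplotlib 3.10.9. Alternatives were other limits, merge distances, overlap rules and scalings, leaving out single libraries, and a block for the replicate number.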

Additional observations from a re-analysis of the deposited data

How the results depend on the processing

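Of 61 alternative values, 43 stayed on the same side or within 1.5 times, 13 moved and 5 reversed; the cause was not tested. All 5 concern the share of the 10 genes' clusters that were enriched, TGFβ1 minus control, which was -0.0548 percentage points. It was 1.74 with a log2 fold limit of 2, 0.656 with a limit of 4 and 0.594 with a −log10 p limit of 5, and leaving out a replicate gave -0.964 to 0.855. With a fold limit of 2 the enriched clusters were 11 in TGFβ1 1 and 19 in TGFβ1 2, with 17 sites. With a limit of 4 they were 2 in control 2 and 4 in TGFβ1 1, with 3 sites. Without TAGLN and S100A11, an alternative chosen after seeing the data, they were 0, 2, 2 and 1. With a −log10 p limit of 5, 1 gene had a control list peak and 1 site was enriched in all 4 libraries. With a replicate left out, 2 to 4 genes had an enriched cluster in the remaining control library.

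The replicate numbers were shared by both conditions, but 2 pairs could not show pairing. The correlation of replicate deviations over 4322 genes was 0.0518. With the replicate block the difference in share remained -0.0548 (exact permutation test, p = 1), and that in tested clusters remained 35.4 (p = 0.5, the smallest 2 pairs allow). The number of libraries limits every comparison of conditions, and the depth is unknown.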
